A study of Mus musculus with 10 samples.

Results

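The genes described here are 10 transcripts of the interleukin-1 (IL-1) family and the inflammasome, measured in neutrophils from mouse skin squamous cell carcinomas: the cytokines Il1a, Il1b and Il18, the receptor antagonist Il1rn, the decoy receptor Il1r2, the sensor Nlrp3, the adaptor Pycard, the caspases Casp1 and Casp4, and the pore-forming protein Gsdmd. They were chosen by symbol, with earlier results of these data known, and each matched 1 of the 55385 mouse gene identifiers in the count table. All 10 were among the 11274 genes tested. Bulk RNA-seq was done on Tomato+ neutrophils sorted from tumours that had been grafted on CatchupIVM-red mice, a strain in which Tomato marks cells that have used the neutrophil gene Ly6g. The grafted carcinoma cells were either Sox2low control cells, which the series calls parental and whose sample names carry GFP, or Sox2Hi cells, whose names carry Sox2. All sample names carry the label C57. The hosts were left naive or received anti-PDL1 with a CD40 agonist. There were 4 groups in the same host strain: 3 libraries each for naive control and naive Sox2Hi tumours, and 2 each for treated control and treated Sox2Hi tumours. Host age and sex, and whether a library came from 1 tumour or a pool, are not given in the sources used here, so p-values measure the spread between libraries, which may be technical. The study asked whether Sox2 in the tumour cells changes how these neutrophils respond to interferons.

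IL-1 alpha and IL-1 beta signal through the same receptor, which couples to MyD88 and IRAK kinases and activates NF-kB. The receptor antagonist occupies that receptor without signalling, and the decoy receptor, which is abundant on neutrophils, binds IL-1 and transmits no signal. IL-1 beta and IL-18 are made as inactive precursors that caspase-1 cleaves after a sensor such as NLRP3 has assembled with the adaptor ASC, the product of Pycard. Caspase-11, the product of mouse Casp4, is activated by cytosolic bacterial lipopolysaccharide, and both caspases cut gasdermin D, which then forms pores in the membrane. Transcript levels do not show cleavage or secretion, which were not measured here.

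Several of the 10 genes are neighbours in the genome (GRCm38 coordinates). Il1a (ENSMUSG00000027399, chromosome 2, 129299610 to 129309972) and Il1b (ENSMUSG00000027398, chromosome 2, 129364570 to 129371139) lie on the minus strand with 54597 bp between them. Casp1 (ENSMUSG00000025888, chromosome 9, 5298517 to 5307265) and Casp4 (ENSMUSG00000033538, chromosome 9, 5308828 to 5336783) lie on the plus strand with 1562 bp between them. Il18 (ENSMUSG00000039217, 50554827 to 50581840) is on chromosome 9 as well, and Il1rn (ENSMUSG00000026981, 24336853 to 24351494) is on chromosome 2. The others are Il1r2 (ENSMUSG00000026073, chromosome 1, 40074079 to 40125231), Pycard (ENSMUSG00000030793, chromosome 7, 127989708 to 127993867), Nlrp3 (ENSMUSG00000032691, chromosome 11, 59541568 to 59566956) and Gsdmd (ENSMUSG00000022575, chromosome 15, 75862327 to 75867408).

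The 250 bases before the transcription start are shown for 5 of the genes that rose with treatment, 2 pairs of neighbours and the adaptor, so that the letters before genes that moved together can be compared. They are RefSeq sequences of GRCm38.p6, written 5′ to 3′ on the strand of the gene, and capitals mark every match to any of 4 patterns searched on both strands. The patterns were GGG and CC with 5 bases of any kind between them (NF-kB type), GAAA and GAAA with 2 such bases between them (type of the interferon-stimulated response element), TTCNNNGAA (type of the interferon gamma-activated site, which reads the same on both strands) and TTGCNNAA (C/EBP type). Il1a is chr2:129309973-129310222, Il1b chr2:129371140-129371389 and Pycard chr7:127993868-127994117, on the minus strand, and Casp1 is chr9:5298267-5298516 and Casp4 chr9:5308599-5308848, on the plus strand. The last bases of the Casp4 window lie in the first exon of its GENCODE model, which starts at 5308828.
Il1a: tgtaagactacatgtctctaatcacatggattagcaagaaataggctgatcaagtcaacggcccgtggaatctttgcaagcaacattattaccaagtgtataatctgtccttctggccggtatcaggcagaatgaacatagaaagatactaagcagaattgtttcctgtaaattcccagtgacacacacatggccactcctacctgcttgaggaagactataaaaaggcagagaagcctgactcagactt
Il1b: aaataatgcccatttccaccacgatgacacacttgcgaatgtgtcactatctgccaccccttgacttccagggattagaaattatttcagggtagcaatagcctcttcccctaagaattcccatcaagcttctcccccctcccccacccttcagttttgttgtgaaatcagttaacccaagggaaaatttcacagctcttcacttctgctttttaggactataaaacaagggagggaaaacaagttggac
Casp1: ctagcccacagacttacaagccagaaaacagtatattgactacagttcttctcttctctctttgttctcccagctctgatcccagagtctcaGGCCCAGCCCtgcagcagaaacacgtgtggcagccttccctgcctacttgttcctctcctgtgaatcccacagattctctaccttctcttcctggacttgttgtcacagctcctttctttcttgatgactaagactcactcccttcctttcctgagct
Casp4: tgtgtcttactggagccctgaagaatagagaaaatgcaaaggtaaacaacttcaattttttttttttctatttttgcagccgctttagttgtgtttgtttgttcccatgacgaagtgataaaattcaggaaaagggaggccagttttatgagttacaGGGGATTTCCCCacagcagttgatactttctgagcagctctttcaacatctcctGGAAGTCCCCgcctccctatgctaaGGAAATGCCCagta
Pycard: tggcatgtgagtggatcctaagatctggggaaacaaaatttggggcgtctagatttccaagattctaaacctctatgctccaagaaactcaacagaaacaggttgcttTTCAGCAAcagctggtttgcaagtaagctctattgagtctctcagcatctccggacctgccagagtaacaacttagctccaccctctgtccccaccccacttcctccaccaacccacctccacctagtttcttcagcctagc
The windows of Il1a and Il1b held none of the 4 patterns. Casp4 held 6 matches of the NF-kB type, of which 4 overlap in 1 run between 93 and 82 bases before the start, while the others stand 39 to 30 and 14 to 5 bases before it. Casp1 held 1 match of that type, 158 to 149 bases before its start, and Pycard held 1 of the C/EBP type, 142 to 135 bases before its start. RefSeq windows matched 9 of the 10 genes, 13 windows in all, and none was matched for Gsdmd. The NF-kB type was found in windows of 4 genes (Casp1, Casp4, Il1rn and Nlrp3), the interferon gamma type in 1 (Il1r2), the C/EBP type in 1 (Pycard) and the interferon-stimulated type in 0. Among all 32851 promoter windows of this length, 45.8% held the NF-kB type, 2.98% the interferon-stimulated type, 7.02% the interferon gamma type and 9.56% the C/EBP type. A match describes letters and is not a measured binding site.

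Total counts ran from 13815734 to 22986193 per library. Levels are given as CPM, the count of a gene relative to the scaled total of its library. The scaling factors came from the 11274 tested genes, all of which averaged 5 CPM or more; this is called the expressed-gene scaling. Both control treated libraries had low factors, 0.756 and 0.755, against 0.848 to 1.22 elsewhere. Factors from all 29648 genes that passed a lower filter, the all-gene scaling, were 0.631 and 0.59 against 0.93 to 1.4, so values under both are given. The all-gene scaling moved the changes of abundant genes: the median over 1473 genes of at least 100 CPM, for treatment of control tumours, was 0.52 on the log2 scale with the expressed-gene scaling and 1.07 with the all-gene scaling. The Tomato reporter transcript had at least 135 counts in each library, while Ly6g, the gene that drives the reporter, was low, with means of 2.47 and 14.6 CPM in naive and treated control tumours and 2.4 and 8.06 in naive and treated Sox2Hi tumours. Reads over olfactory and vomeronasal receptor genes, taken as silent, gave an expected background of 0.00501% of the counts of Il1r2 and up to 3.42% of those of Gsdmd, with a highest value in a single library of 9.09% for Pycard.

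**Figure D1:**
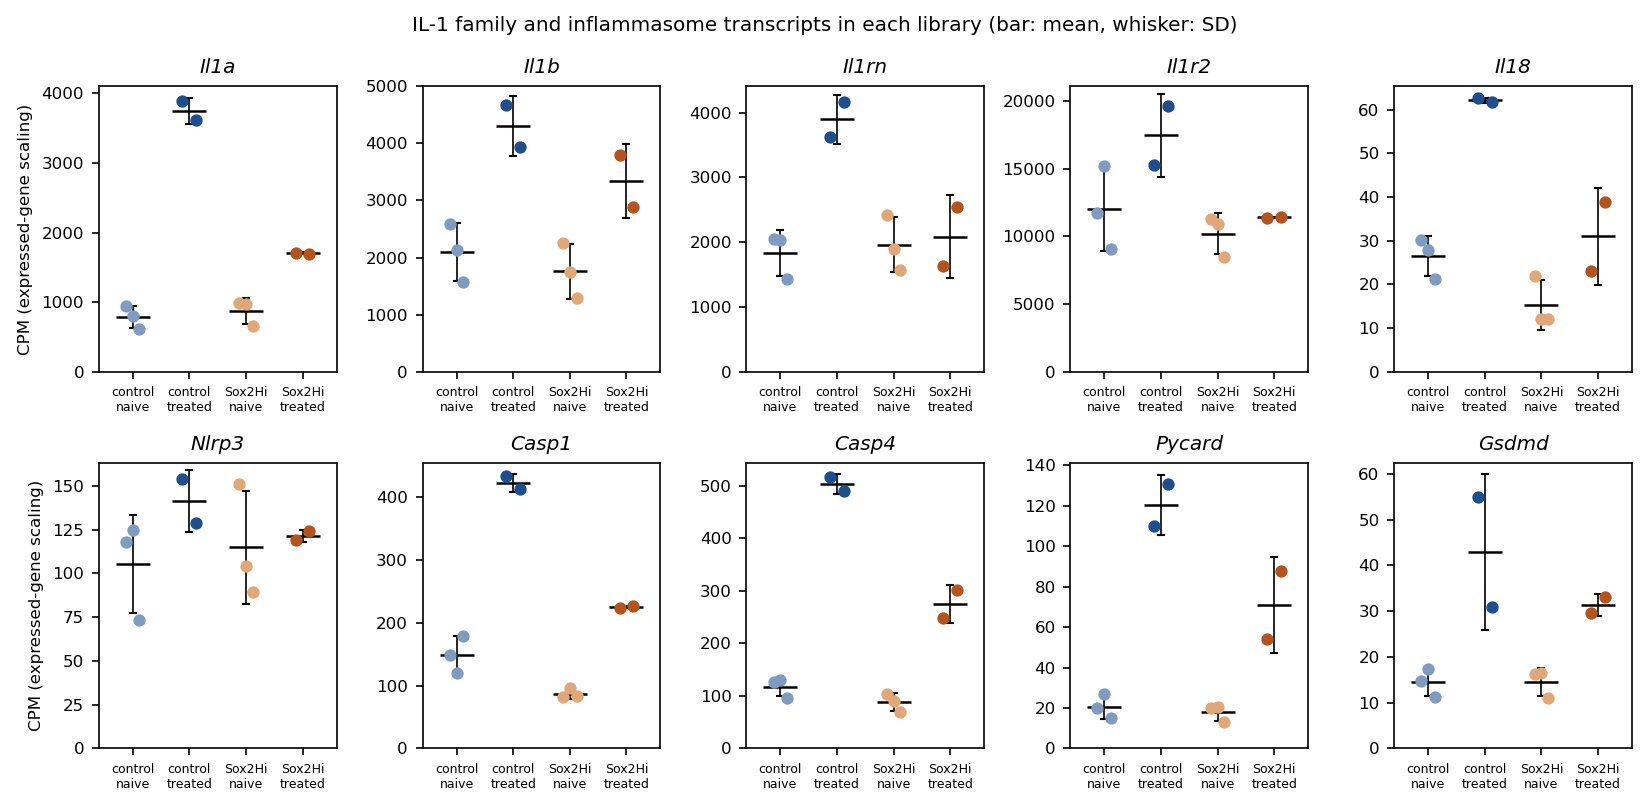
Level of each of the 10 transcripts in every library, in CPM with the expressed-gene scaling on a linear axis from 0; points are libraries, bars are group means and whiskers are the SD (n = 3, 2, 3 and 2 from left to right). The control treated libraries stand highest for Il1a (3883 and 3610 CPM), Casp4 (516 and 489) and Pycard (110 and 131), and the Sox2Hi treated libraries lie between them and the naive libraries.

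Per kilobase of exon, Il1r2 was the most abundant of the 10 transcripts, with a mean of 6524 CPM per kb over all libraries. Il1b followed with 1409, Il1a with 805 and Il1rn with 422, so the decoy receptor stood above the ligands in these cells. The inflammasome genes were lower, Casp1 at 134 CPM per kb, Casp4 at 58.5, Nlrp3 at 29.3, Pycard at 13.1 and Gsdmd at 9.89, and Il18 stood with them at 30.2. In control naive tumours Casp4, Nlrp3 and Il18 had 31.7, 26 and 25.6 CPM per kb, and Gsdmd and Pycard 6.05 and 5.41, differences within the spread of those libraries. After treatment of control tumours the order of Pycard and Gsdmd was the opposite, with 31.8 and 18 CPM per kb. Exon lengths are those of the merged GENCODE model, so genes with a long untranslated or retained part, such as Il1rn and Pycard, may be understated.

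Treatment of control tumours raised 8 of the 10 transcripts: all 3 cytokines, the receptor antagonist, both caspases, the adaptor and gasdermin D. The largest rises were in Pycard (5.88-fold), Il1a (4.77-fold) and Casp4 (4.28-fold). Il1r2 and Nlrp3 did not pass the test (edgeR quasi-likelihood test, Benjamini-Hochberg adjusted p under 0.05). Of all 11274 genes tested, 24.1% were called higher in this comparison. The median log2 fold change of the 10 genes was 1.37, against -0.18 over all genes. In bulk samples fewer cells of a type and less RNA per cell cannot be told apart, and the same holds for more cells and more RNA.

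Il1a, the ligand that is active in its full-length form, had 940, 800 and 619 CPM in the 3 naive control libraries and 3883 and 3610 in the 2 treated ones. Its lowest treated library was thus far above every naive one, and the rise was 2.25 on the log2 scale (SE 0.22, edgeR adjusted p = 7.7e-05). Il1b, which needs cleavage, had 2579, 2132 and 1578 CPM in naive and 4674 and 3938 in treated libraries. Its groups did not overlap, but its rise of 1.04 (SE 0.27, edgeR adjusted p = 0.0075) was smaller, and with library totals in place of scaling factors it was 0.53 and was not called (adjusted p = 0.087). Il18 was scarce, with 30.1, 27.9 and 21.3 CPM in naive and 62.6 and 61.7 in treated libraries. It rose by 1.24 (SE 0.29, edgeR adjusted p = 0.0043), from 391 to 497 counts in naive libraries to 867 and 1036 in treated ones.

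Among the proteins that hold IL-1 in check, Il1rn had 2049, 2033 and 1429 CPM in the 3 naive control libraries and 3632 and 4161 in the 2 treated ones. It rose by 1.08 (SE 0.25, edgeR adjusted p = 0.0044), a 2.12-fold change next to the 2.05-fold change of Il1b. Il1r2 had 11763, 15207 and 9087 CPM in naive and 15307 and 19619 in treated libraries. The lowest treated and the highest naive library of Il1r2 were nearly equal, and its log2 fold change of 0.54 (SE 0.26) did not pass (edgeR adjusted p = 0.097). Of 20 alternative fits 4 called it, among them the all-gene scaling (1.12) and DESeq2 (0.67).

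Nlrp3, the sensor, had 118, 125 and 73.5 CPM in the 3 naive control libraries and 154 and 129 in the 2 treated ones. Its log2 fold change was 0.43 (SE 0.26, edgeR adjusted p = 0.17), close to the median of 0.52 over genes of at least 100 CPM. Pycard had 20, 26.7 and 14.9 CPM in naive and 110 and 131 in treated libraries, so the adaptor went from below Nlrp3 to about its level in CPM. The rise of Pycard was 2.56 (SE 0.29, edgeR adjusted p = 0.00014), the largest of the 10.

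Casp1, the caspase that matures IL-1 beta and IL-18, had 148, 120 and 179 CPM in the 3 naive control libraries and 433 and 413 in the 2 treated ones, a rise of 1.50 (SE 0.17, edgeR adjusted p = 0.00014). Casp4 had 126, 130 and 96.5 CPM in naive and 516 and 489 in treated libraries, a rise of 2.10 (SE 0.20, edgeR adjusted p = 6.5e-05). Both caspases had treated libraries that lay close together and far above the naive ones. Gsdmd had 14.7, 17.3 and 11.2 CPM in naive and 55 and 30.8 in treated libraries. The treated libraries of Gsdmd differed by more than those of the caspases, and its rise was 1.58 (SE 0.27, edgeR adjusted p = 0.00093).

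With the expressed-gene scaling the control treated and control naive libraries did not overlap for all 10 genes, which held for 29.6% of all genes in the higher direction. As CPM of the unscaled library total, Il1r2 overlapped (9786 to 15715 in naive, 11193 and 14330 in treated libraries). Nlrp3 overlapped as well (79.2 to 129 in naive, 94.5 and 113 in treated libraries). Il1a, Il1rn, Il18, Casp1, Casp4, Pycard and Gsdmd were called in each of the 20 alternative fits, which include leaving out each library, and Il1b in 19. With the all-gene scaling all 10 were called higher, against 18.7% of 29648 genes, with Nlrp3 at 0.99 and Il1r2 at 1.12, near the 1.07 of genes of at least 100 CPM. Marker genes of several cell types differed between the same libraries, on the same CPM scale. The sum of 20 neutrophil markers was 5371 to 8467 CPM in naive and 26866 to 32976 in treated control libraries (0.578% to 0.875% and 1.96% to 2.41% of counts), with S100a8 at means of 1676 and 8878 CPM. The sum of 12 macrophage and monocyte markers was 968 to 1479 CPM in naive and 1827 to 2528 in treated libraries, without overlap, although as a share of unscaled counts it overlapped (0.104% to 0.153% and 0.133% to 0.185%). Within that list the monocyte genes Ly6c2 and Ccr2 and the gene Cd68 had means of 24.5, 50.7 and 223 CPM in naive and 427, 204 and 675 in treated tumours, while Mrc1, at 36.3 and 27.1, and Apoe, at 559 and 391, were not higher. The 9 dendritic cell markers summed to 1597 to 2242 and 3408 to 3500 CPM, nearly all of it H2-Ab1 (means of 1770 and 3425 CPM), a gene of antigen presentation that other cells also use. Without H2-Ab1 the list was low, and 5 of its other 8 genes had lower means after treatment, such as Cd209a at 16.7 and 0.936 CPM. Fibroblast and endothelial markers (9 genes) were lower after treatment, at 320 to 840 and 109 to 133 CPM, and keratinocyte markers (12 genes) overlapped at 1162 to 3172 and 762 to 1638 CPM. Mast cell markers (7 genes) were lower after treatment, at 38.7 to 242 and 9.03 to 28.1 CPM, without overlap. T and NK cell markers (10 genes) overlapped at 43 to 73.4 and 70.7 to 215 CPM, with Cd3g at means of 9.77 and 46.3 CPM and Gzmb at 5.54 and 20.5. In the same list Cd4 (3.16 and 1.82 CPM) and Klrb1c (1.97 and 1.78) had lower means after treatment. No list had a gene at 0 throughout a group, and their part in the changes was not tested.

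Treatment of Sox2Hi tumours raised 7 of the 10 transcripts, while Il1rn, Il1r2 and Nlrp3 did not pass the test. The largest rises were in Pycard (3.97-fold), Casp4 (3.13-fold) and Casp1 (2.59-fold). Of all genes, 15.0% were called higher, and the median log2 fold change was 0.99 for the 10 genes and 0.09 for all genes. The calls were less stable here, since the all-gene scaling called 3 of the 10 (Casp1, Casp4 and Pycard), against 1.79% of its 29648 genes. Leaving out Sox2Hi naive replicate 3 or either Sox2Hi treated library also lowered the number of the 10 genes called. The number called over all genes varied widely as well among the fits that left out 1 library.

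**Figure D2:**
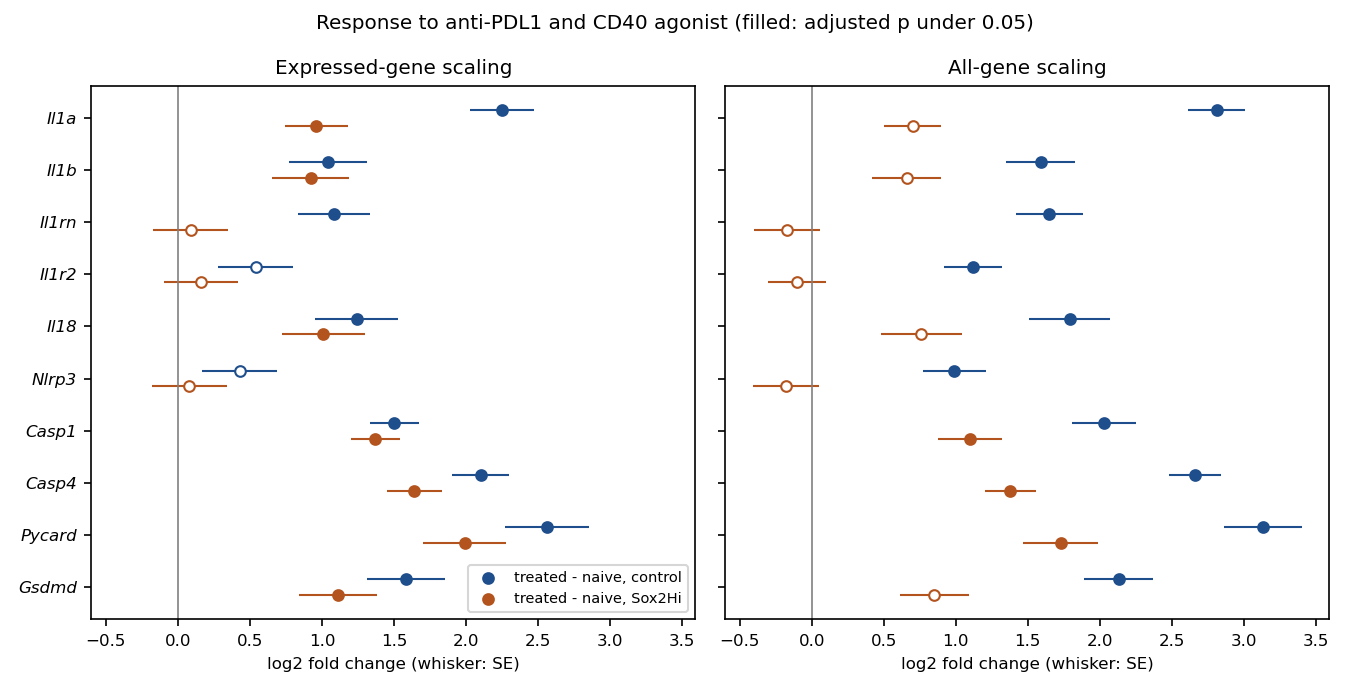
Log2 fold change of each transcript from naive to treated tumours in control (blue) and Sox2Hi (orange) grafts, with the SE as whiskers, under the expressed-gene scaling (left) and the all-gene scaling (right); filled points have an adjusted p under 0.05. Casp1, Casp4 and Pycard are filled for both grafts in both panels, and Il1rn in Sox2Hi tumours lies near 0 on the left (0.09) and below it on the right (-0.17).

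Both caspases and the adaptor were called in all 20 alternative fits of treatment in Sox2Hi tumours. Casp1 had 81, 96.3 and 83.3 CPM in the 3 naive Sox2Hi libraries and 224 and 226 in the 2 treated ones, and rose by 1.37 (SE 0.17, edgeR adjusted p = 0.00098). Casp4 had 104, 90.2 and 69.5 CPM in naive and 249 and 301 in treated libraries, and rose by 1.64 (SE 0.19, edgeR adjusted p = 0.00074). For both, every treated library was far above every naive one. Pycard had 20.1, 20.5 and 12.9 CPM in naive and 54.1 and 87.8 in treated libraries, and rose by 1.99 (SE 0.29, edgeR adjusted p = 0.0019). Gsdmd had 16.2, 16.4 and 10.9 CPM in naive and 29.6 and 33 in treated libraries. Its groups did not overlap, and its rise of 1.11 (SE 0.27, edgeR adjusted p = 0.019) was called in 16 of 20 alternatives.

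Il1a had 987, 977 and 665 CPM in the 3 naive Sox2Hi libraries and 1712 and 1697 in the 2 treated ones, a rise of 0.96 (SE 0.22, edgeR adjusted p = 0.015). Its treated libraries were nearly equal and stood above all naive ones, and 16 of 20 alternatives called it. Il1b had 2253, 1749 and 1290 CPM in naive and 3802 and 2879 in treated libraries, a rise of 0.92 (SE 0.27, edgeR adjusted p = 0.035). Il18 had 21.9, 12.1 and 12 CPM in naive and 23.1 and 38.9 in treated libraries, a rise of 1.01 (SE 0.29, edgeR adjusted p = 0.034). The highest naive and the lowest treated library of Il18 were close together, and without Sox2Hi treated replicate 2 its value was 0.53 and not called (adjusted p = 0.37). The calls of Il1b and Il18 each held in 9 of 20 alternatives, with adjusted p up to 0.16 for Il1b.

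The antagonist, the decoy receptor and the sensor had small differences in Sox2Hi tumours. Il1rn had 2424, 1895 and 1574 CPM in naive and 1636 and 2538 in treated libraries, so the groups overlapped. Its log2 fold change was 0.09 (SE 0.26, edgeR adjusted p = 0.82) and -0.17 with the all-gene scaling. Il1r2 had 11267, 10927 and 8455 CPM in naive and 11399 and 11441 in treated libraries, with a log2 fold change of 0.16 (SE 0.26, edgeR adjusted p = 0.67) that was -0.10 with the all-gene scaling. Nlrp3 had 151, 104 and 89.6 CPM in naive and 119 and 124 in treated libraries, with the treated libraries inside the naive range. Its log2 fold change was 0.08 (SE 0.26, edgeR adjusted p = 0.84), and -0.18 with the all-gene scaling. None of these 3 was called in any of 20 alternatives. In all, 8 of the 10 genes had treated libraries above every naive one with the expressed-gene scaling, which held for 37.0% of all genes. As CPM of the unscaled library total, Il1b, Il18 and Il1r2 overlapped. Their lowest treated libraries had 2363, 22.6 and 9391, and their highest naive ones 2508, 24.4 and 12541. The neutrophil marker sum was 4993 to 8221 CPM in naive and 13386 to 14033 in treated Sox2Hi libraries. The fibroblast and endothelial sum was lower after treatment (506 to 710 and 135 to 358 CPM), without overlap, and the keratinocyte sums were 1437 to 1792 and 1031 to 1624 CPM (0.162% to 0.212% and 0.0846% to 0.159% of counts). The macrophage and monocyte sums overlapped (1342 to 1880 and 1254 to 2381 CPM), while Ly6c2 had means of 19.4 and 160 CPM and Ccr2 of 40.5 and 138. The part of these lists in the changes was not tested.

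Between the grafts in naive tumours 1 of the 10 genes differed: Casp1 was lower in Sox2Hi, with 81, 96.3 and 83.3 CPM against 148, 120 and 179 in control. Every Sox2Hi naive library of Casp1 was below every control naive one, the only such gene of the 10, while 21.8% of all genes were lower without overlap. The log2 fold change of Casp1 was -0.78 (SE 0.16, edgeR adjusted p = 0.014), and 11.9% of all genes were called lower. The call ended with the all-gene scaling (-0.43, adjusted p = 0.19, where 0.209% of genes were called lower), with only the naive groups in the fit (-0.71, adjusted p = 0.055) and without Sox2Hi naive replicate 3 (-0.75, adjusted p = 0.067). With the title number as a replicate block in the naive libraries alone, 2 genes were called, Casp1 and Il18, the latter at -0.76 (edgeR adjusted p = 0.016). With that block over all libraries, 2 were called, Casp1 and Casp4, the latter at -0.42 (edgeR adjusted p = 0.045).

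Il18 had 21.9, 12.1 and 12 CPM in Sox2Hi naive and 30.1, 27.9 and 21.3 in control naive libraries, a log2 fold change of -0.78 (SE 0.27) that did not pass (edgeR adjusted p = 0.078). Of 21 alternative fits 3 called Il18: the naive libraries alone with the block, limma-voom with quality weights (-1.01, adjusted p = 0.0035) and the fit without Sox2Hi naive replicate 1 (-1.13, adjusted p = 0.044). The title block over all libraries did not (-0.79, adjusted p = 0.054). For Il18, 1 Sox2Hi library lay within the control range and the other 2 lay below it. Casp4 had 104, 90.2 and 69.5 CPM against 126, 130 and 96.5, with a log2 fold change of -0.42 (SE 0.18, edgeR adjusted p = 0.16). The groups overlapped for Casp4 and for the remaining 7 genes, whose values ran from -0.25 for Il1b to 0.16 for Il1a. Of these, Il1b, Il1r2 and Pycard were below 0 with the expressed-gene scaling and above 0 with the all-gene scaling (0.12, 0.15 and 0.19). The median of the 10 genes was -0.22, and 0.17 with the all-gene scaling, against -0.05 and -0.08 over all genes.

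In treated tumours 5 of the 10 transcripts were lower in Sox2Hi than in control grafts: Il1a, Il1rn, Il18, Casp1 and Casp4. The differences ran from 2.2-fold lower for Il1a to 1.83-fold lower for Casp4. Of all genes, 5.87% were called lower, and the median log2 fold change was -0.82 for the 10 genes and 0.04 for all genes, but -0.37 for genes of at least 100 CPM. The calls rested on few libraries: all 5 ended without Sox2Hi treated replicate 1, where fewer of all genes were called too. Fewer of the 10 were called without either control treated library. Each of these fits leaves 1 library in a group. Without Sox2Hi treated replicate 1 the log2 fold changes of the 5 genes still ran from -0.62 for Il1rn to -1.14 for Il1a. The all-gene scaling called 8 of the 10 lower, against 9.57% of its genes, and library totals alone called 2.

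For Il1a the 1712 and 1697 CPM of the Sox2Hi treated libraries stood well under the 3883 and 3610 of the control treated libraries (-1.14, SE 0.25, edgeR adjusted p = 0.013). For Casp1, 224 and 226 CPM stood against 433 and 413 (-0.91, SE 0.19, edgeR adjusted p = 0.012), and for Casp4, 249 and 301 stood against 516 and 489 (-0.87, SE 0.22, edgeR adjusted p = 0.021). In these 3 genes the spread within a group was small next to the gap between groups. For Il1rn, 1636 and 2538 CPM stood against 3632 and 4161 (-0.90, SE 0.29, edgeR adjusted p = 0.046), and for Il18, 23.1 and 38.9 stood against 62.6 and 61.7 (-1.01, SE 0.32, edgeR adjusted p = 0.049). The Sox2Hi libraries of Il1rn and Il18 differed among themselves, and 11 and 9 of 20 alternatives called these genes.

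The other 5 genes did not pass the test between treated grafts. Pycard had 54.1 and 87.8 CPM in Sox2Hi treated and 110 and 131 in control treated libraries, a log2 fold change of -0.77 (SE 0.31, edgeR adjusted p = 0.1). Il1r2 had 11399 and 11441 against 15307 and 19619 (-0.61, SE 0.29), and Il1b had 3802 and 2879 against 4674 and 3938 (-0.37, SE 0.30). With the expressed-gene scaling Gsdmd was the 1 gene of the 10 whose groups overlapped, with 29.6 and 33 against 55 and 30.8 CPM (-0.45, SE 0.30). The other 9 genes were lower in both Sox2Hi libraries than in both control libraries, while 26.3% of all genes were lower without overlap. Nlrp3 was lower by a narrow margin (119 and 124 against 154 and 129 CPM). As CPM of the unscaled library total, Il1b (3723 and 2363 against 3418 and 2876) and Nlrp3 (116 and 102 against 113 and 94.5) overlapped as well. Neutrophil markers summed to 13386 to 14033 CPM in Sox2Hi and 26866 to 32976 in control libraries of treated tumours, and fibroblast and endothelial markers to 135 to 358 and 109 to 133 CPM. Mast cell markers summed to 31.1 to 66.9 CPM in Sox2Hi and 9.03 to 28.1 in control, without overlap. Ly6c2 had means of 160 CPM in Sox2Hi and 427 in control, and the macrophage and monocyte sums overlapped (1254 to 2381 and 1827 to 2528 CPM). The part of these lists in the differences was not tested.

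The treatment response itself differed between the grafts for 1 of the 10 genes, Il1a, by the interaction term of the model. Its response was 4.77-fold in control and 1.95-fold in Sox2Hi tumours, a difference of -1.29 on the log2 scale (SE 0.32, edgeR adjusted p = 0.014). Of all genes, 2.84% were called with a lower response in Sox2Hi. Il1a was called in 18 of 19 alternatives, the exception being the fit without Sox2Hi treated replicate 1 (-1.30, adjusted p = 0.051). Il1rn had a difference of -1.0 (SE 0.37, edgeR adjusted p = 0.082) and was called in 7 of 19 alternatives, among them DESeq2 (-1.24, adjusted p = 0.0063). The other 8 genes had differences between -0.57 for Pycard and -0.12 for Il1b. Those of Il1b (-0.12, SE 0.39) and Casp1 (-0.13, SE 0.25) were small, with errors that leave room for either sign. The median was -0.42 for the 10 genes, 0.02 for all genes and -0.37 for genes of at least 100 CPM. The all-gene scaling called 8 of the 10 lower, all but Il1b and Il18, against 16.2% of its genes, and its median over genes of at least 100 CPM was -1.19.

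Ratios of 2 transcripts within a library do not depend on the scaling. The Il1a to Il1b count ratio was 0.364, 0.375 and 0.392 in control naive libraries and 0.831 and 0.917 in control treated libraries. In Sox2Hi tumours it was 0.438, 0.558 and 0.515 in naive and 0.45 and 0.589 in treated libraries. In control tumours the log2 ratio was thus higher by 1.21 after treatment, with no overlap, and in Sox2Hi tumours the difference was 0.04 and the groups overlapped. The exact two-sided permutation p was 0.1 for the former, the smallest that 3 against 2 libraries allow (0.32 adjusted over 16 tests), and 0.8 for the latter. The difference between the grafts in this ratio was not tested.

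**Figure D3:**
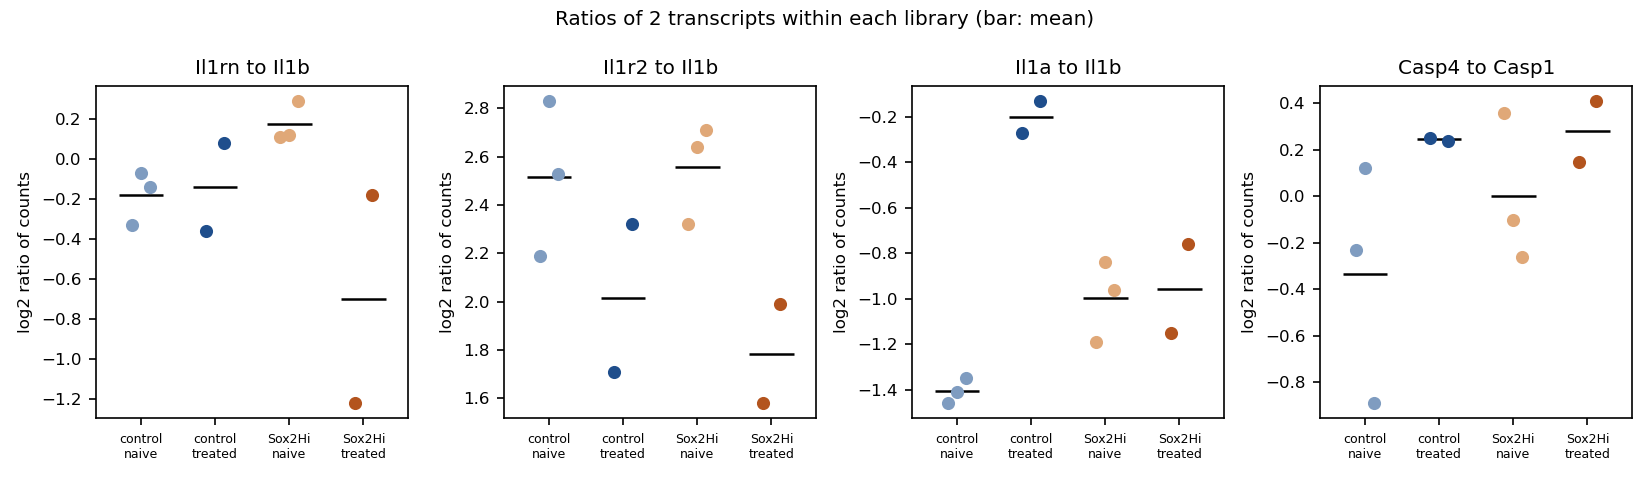
Log2 ratio of the counts of 2 transcripts in each library, with the group mean as a bar; the axes do not start at 0. The Il1a to Il1b ratio of the control treated libraries (-0.27 and -0.13) stands apart from the other 8 libraries, which lie between -1.46 and -0.76.

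Il1rn and Il1b were present at similar counts, with a ratio of 0.795 to 0.954 in the naive and 0.777 and 1.06 in the treated control libraries. In Sox2Hi tumours it was 1.08, 1.08 and 1.22 in naive and 0.43 and 0.881 in treated libraries. The log2 difference with treatment was 0.04 in control and -0.87 in Sox2Hi tumours, and in the latter every treated library was below every naive one (exact two-sided permutation p = 0.1, 0.32 adjusted). Most of that difference came from 1 library: without Sox2Hi treated replicate 1 it was -0.35. Il1r2 had 3 to 7.13 times the counts of Il1b. That ratio was lower after treatment by 0.50 in control and 0.77 in Sox2Hi tumours on the log2 scale (exact two-sided permutation p = 0.3 and 0.1). The Casp4 to Casp1 log2 ratio differed with treatment by 0.58 in control and 0.28 in Sox2Hi tumours (exact two-sided permutation p = 0.2 and 0.4). Between the naive grafts the Il1a to Il1b and Il1rn to Il1b log2 ratios were higher in Sox2Hi by 0.41 and 0.35, without overlap (exact two-sided permutation p = 0.1 each, 0.32 adjusted). Between the treated grafts both differences had the opposite sign, -0.76 without overlap and -0.56 with overlap (exact two-sided permutation p = 0.333 and 0.667). No ratio could pass the threshold of 0.05, since 0.1 is the smallest p that 3 libraries against 3 or 2 allow, and 0.333 that 2 against 2 allow.

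Other genes of the pathway were followed in 4 lists of 63 genes, of which 52 were tested. They were ligands and receptors of the IL-1 family, receptor signalling, sensors and regulators of the inflammasome, and genes that IL-1 induces. In control tumours treatment raised 31 and lowered 6 of the 52, with a median of 0.74, while 24.1% and 33.1% of all genes were called higher and lower (44 higher of 62 with the all-gene scaling, against 18.7%, where the 6 lower calls ended). In Sox2Hi tumours it raised 14 and lowered 3, with a median of 0.29, against 15.0% and 6.57% of all genes (5 and 4 of 62 with the all-gene scaling, against 1.79% and 1.82%). Receptor signalling genes were called higher in 9 of 14 cases in control and 2 of 14 in Sox2Hi tumours. For inflammasome sensors and regulators these counts were 13 and 9 of 19, for IL-1 induced genes 5 and 1 of 8, and for ligands and receptors 4 and 2 of 11. Ligands and receptors had as many lower calls, 4 in control and 2 in Sox2Hi tumours, with medians of -0.31 and -0.34. Of the other lists, inflammasome sensors and regulators had 2 and 1 lower calls. The difference between the grafts in these counts was not tested.

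**Figure D4:**
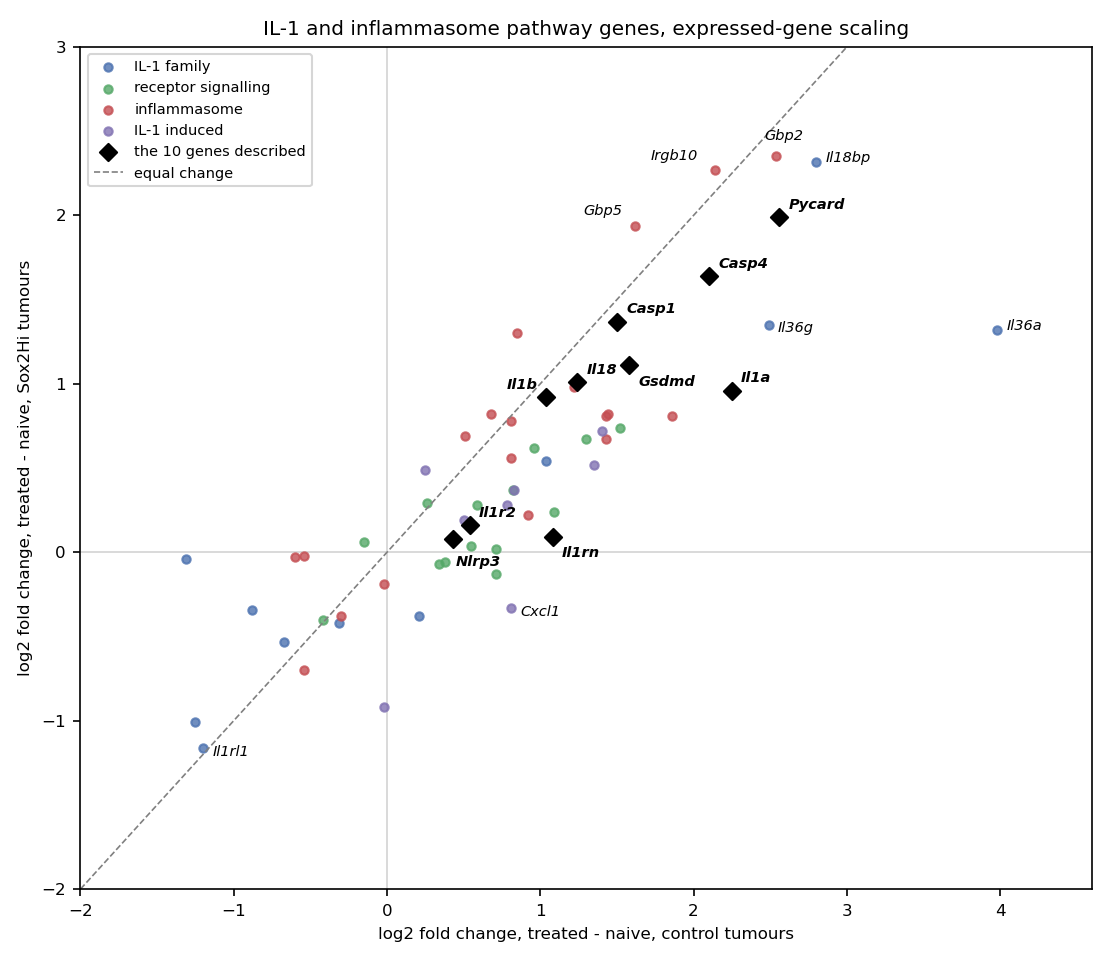
Log2 fold change with treatment in control tumours (x axis) and in Sox2Hi tumours (y axis) for the 52 tested pathway genes (circles, coloured by list) and the 10 genes described (diamonds), with the expressed-gene scaling; the dashed line marks equal change. Il36a (3.98 and 1.32) and Il1a (2.25 and 0.96) lie well to the right of the line, while Gbp5 (1.62 and 1.94) lies above it.

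The largest rises among ligands were in the IL-36 cytokines, relatives of IL-1 known from skin inflammation. Il36a had 2.91, 2.45 and 1.58 CPM in the 3 naive control libraries and 29.6 and 43.3 in the 2 treated ones, a rise of 3.98 (SE 0.44, edgeR adjusted p = 0.00014). It passed the filter of 5 CPM, with a mean of 8.27 over all libraries, only through these 2 treated libraries. Its comparisons with that group are therefore not independent of the filter. In Sox2Hi tumours Il36a had 4.87, 2.1 and 1.62 CPM in naive and 5.23 and 9.14 in treated libraries, which was not called (1.32, SE 0.43, edgeR adjusted p = 0.052). Its response was lower in Sox2Hi by 2.66 on the log2 scale (SE 0.63, edgeR adjusted p = 0.011), although not called without Sox2Hi treated replicate 1 (-2.31, adjusted p = 0.062). Il36g rose in control tumours by 2.49 (SE 0.31, edgeR adjusted p = 0.00024), from 332 ± 70.5 CPM (SD, n = 3) to 1867 ± 129 (SD, n = 2), and in Sox2Hi tumours by 1.35 (SE 0.31, edgeR adjusted p = 0.015), a call that ended with the all-gene scaling (1.09, adjusted p = 0.059). Il18bp, which encodes the secreted protein that neutralises IL-18, rose by 2.80 (SE 0.23, adjusted p = 3.9e-05) in control and 2.32 (SE 0.23, adjusted p = 0.0003) in Sox2Hi tumours, more than Il18 itself in each. It was at 465 ± 83.4 CPM in control treated and 233 ± 29.3 in Sox2Hi treated libraries (SD, n = 2 each), lower in the latter by 1.00 on the log2 scale (SE 0.25, edgeR adjusted p = 0.021).

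The interferon-inducible GTPases that act with the inflammasome had large rises in both grafts. Gbp2 rose by 2.54 (SE 0.32) in control and 2.35 (SE 0.32) in Sox2Hi tumours (edgeR adjusted p = 0.00023 and 0.0014), and it was the most abundant, at 8789 ± 678 CPM in control treated libraries (SD, n = 2). In Sox2Hi tumours Irgb10 rose by 2.27 (SE 0.32) and Gbp5 by 1.94 (SE 0.27), with edgeR adjusted p of 0.0018 and 0.0017. Members of these GTPase families are similar in sequence, so the split of reads among them is uncertain. Treatment lowered Il1rl1, the IL-33 receptor (-1.16, SE 0.27), Sigirr, a receptor that dampens IL-1 signalling (-1.01, SE 0.25), and Nek7, a partner of NLRP3 (-0.70, SE 0.17), in Sox2Hi tumours (edgeR adjusted p = 0.016, 0.022 and 0.019). Il1rl1, Sigirr and Nek7 were also called lower in control tumours (-1.20, -1.25 and -0.54, edgeR adjusted p = 0.004, 0.0029 and 0.02), though not with the all-gene scaling (-0.65, -0.72 and -0.01). The difference in their responses between the grafts did not pass the interaction test (0.03, 0.24 and -0.16, edgeR adjusted p = 0.97, 0.69 and 0.69), although the all-gene scaling called a lower response of Nek7 in Sox2Hi (-0.97, adjusted p = 0.04). Mast cells are known to express Il1rl1, and the mast cell sum was 52.4 to 93.2 CPM in naive and 31.1 to 66.9 in treated Sox2Hi libraries, whose part in its fall was not tested. Sigirr was scarce and was the 1 gene of the 52 called between naive grafts, where 2.10% of all genes were called higher, at 12.4 ± 1.89 CPM in Sox2Hi and 7.02 ± 1.27 in control (SD, n = 3 each; 0.82, SE 0.22, edgeR adjusted p = 0.032). The naive difference in Sigirr rested on few libraries, since 5 of the 6 fits that left out a naive library lost it (adjusted p up to 0.14). Silent-gene background made up 27.1% of the counts of Il1rl1 and 12.2% of those of Sigirr.

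In treated tumours 2 of the 52 genes were called higher and 5 lower in Sox2Hi, against 15.0% and 5.87% of all genes (28 lower of 62 with the all-gene scaling, against 9.57%, where both higher calls ended). By the interaction term 4 were called, each with a lower response in Sox2Hi, against 2.84% of all genes (34 of 62 with the all-gene scaling, against 16.2%). Besides Il36a these were the neutrophil chemokine Cxcl1 (-1.14, SE 0.29), the kinase Irak2 (-0.86, SE 0.25) and Tollip (-0.83, SE 0.25), an adaptor of the IL-1 receptor, with edgeR adjusted p of 0.018, 0.034 and 0.038. Cxcl1 was at 150 ± 19 CPM in naive and 263 ± 87.8 in treated control tumours, and at 201 ± 18.7 and 160 ± 16.5 in Sox2Hi (SD, n = 3, 2, 3 and 2). None of these 3 was called without Sox2Hi treated replicate 1 (adjusted p = 0.09, 0.15 and 0.18).

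Likeness of pattern over the 10 libraries was ranked by Pearson r of log2(CPM + 1) among the tested genes, leaving out those with Gm or Rik names. The genes most like Il1b were Pde4d (0.992), Tiparp (0.984), Nfe2l2 (0.981), Trim30d (0.98) and Ampd3 (0.979). Those most like Casp4 were Gpr141 (0.996), Stfa1 (0.995), Pttg1 (0.995), Ifi207 (0.994) and Rtp4 (0.993). These values describe 10 libraries that fall into 4 groups and share scaling factors, and Stfa1 and Ifi207 belong to families of similar genes among which reads may be divided.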

How the data were processed

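RNA was sequenced from 10 libraries of sorted neutrophils in 4 groups. The authors deposited 1 table of estimated counts per gene and library. The values are whole numbers, so rounding before the tests changed none of them. The submitters' processing notes name kallisto 0.44.0 and the build mm10, without saying how they were used; strandedness and the annotation are not given in the sources used here. Identifiers were matched to GENCODE M21 (GRCm38), which named 55144 of 55385. Another 96 rows that name no mouse gene, such as reporters, held 0.000992% to 0.00277% of counts and stayed out of library sizes and tests.

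The main test was edgeR's quasi-likelihood F-test (edgeR 4.0.16, R 4.3.3) on all 10 libraries, with 1 coefficient per group and TMM factors from genes averaging 5 CPM or more. Adjusted p-values are Benjamini-Hochberg over all 11274 genes, with a threshold of 0.05, and the interaction is the difference of the treatment responses. The 10 genes, the lists and the scaling were chosen with earlier results of these data known. For treatment of control tumours the median change differed between abundant genes and all genes under either scaling. All 10 genes are described whatever their result. Other pathway genes are named by rule: in each comparison, up to 4 largest rises and 4 largest falls called under both scalings.

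Within-library log2 ratios used a pseudocount of 0.5 counts and exact two-sided permutation tests. Alternatives were the all-gene scaling, RLE factors, library totals, other filters on low counts, DESeq2 1.42.0, limma-voom with sample quality weights (limma 3.58.1), replicate blocks, the compared groups alone and leaving out each library. Where that leaves 1 library in a group, it is assumed to vary like the other groups. The script was tested on simulated counts with as many genes raised as lowered, which does not test the scaling in these data. No pair of replicates was alike within sampling noise (lowest chi-square per degree of freedom 12.5). Background was taken from 1464 olfactory and vomeronasal receptor genes. Replicate numbers in the titles pair the naive libraries by their deviations from the group means (r = 0.273, 0.325 and 0.474), a pairing that comes from the data and not from the labels.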

Additional observations from a re-analysis of the deposited data

Results flagged for a closer look

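The difference in treatment response between the grafts passed the interaction test for Il1a, whose response was lower in Sox2Hi by 1.29 on the log2 scale (-1.29), and for 4 genes of the pathway lists. These were Il36a (-2.66), Cxcl1 (-1.14), Irak2 (-0.86) and Tollip (-0.83). Il36a passed the filter of 5 CPM only through the control treated libraries. For all 5 genes the call ended without Sox2Hi treated replicate 1.

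Outside the gene table, the reporter transcript tdTomato was counted in all 10 libraries, with a lowest count of 135. As CPM of the library total, it was 13.1 ± 3.11 and 19.6 ± 3.85 in naive and treated control tumours and 14.2 ± 2.85 and 20.3 ± 10.4 in naive and treated Sox2Hi tumours (SD, n = 3 naive and 2 treated).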

How the results depend on the processing

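Of 440 alternative values for those of the 10 genes called in a comparison, 378 stayed called in the same direction, 62 were no longer called and none reversed. Of 397 for named pathway genes, 335 stayed called and 62 did not. With 2 libraries in each treated group, calls in Sox2Hi tumours and between treated grafts depend on single libraries, and the cause of each change below was not tested. The lowest count of any of the 10 genes in a library was 206.

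With the all-gene scaling the number of the 10 genes called went from 7 to 3 for treatment of Sox2Hi tumours, from 1 to 0 between naive grafts, from 5 to 8 between treated grafts and from 1 to 8 for the interaction. Between naive grafts it was 3 with weighted limma-voom (run only with sample quality weights) and 0 with the compared groups alone (14 genes called in all). Between treated grafts it was 7 with DESeq2, 2 with library totals, 3 with weighted limma-voom and 3 with the compared groups alone. For the interaction it was 2 with RLE factors, with all filterByExpr genes, with no filter and with DESeq2. Leaving out 1 library gave 8 to 9 genes for treatment of control tumours, 3 to 7 for Sox2Hi tumours, 0 to 2 between naive grafts, 0 to 5 between treated grafts and 0 to 2 for the interaction.

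Over all genes, treatment of control tumours called 6456, and 10078 with the all-gene scaling, 16194 with all filterByExpr genes and 15968 with no filter. Treatment of Sox2Hi tumours called 2433, and 1070 with the all-gene scaling and 3765 with weighted limma-voom (194 to 3268 leaving out 1 library). Naive grafts gave 1576, and 554 with the all-gene scaling, 1016 with library totals, 3915 with all filterByExpr genes, 3027 with no filter, 4129 with weighted limma-voom and 14 with the compared groups alone (4 to 1955 leaving out 1 library). Treated grafts gave 2353, and 4076, 5404 and 4319 with the all-gene scaling, all filterByExpr genes and no filter, and 816 with the compared groups alone (334 to 2669 leaving out 1 library). The interaction called 2228, and 8149, 10934 and 10690 with those 3 settings and 3355 with DESeq2.

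With a replicate block by title number, the genes called of the 10 were 6 for treatment of Sox2Hi tumours (Il18 lost, 0.89, adjusted p = 0.061), 2 between naive grafts, 6 between treated grafts (Pycard gained, -0.79, adjusted p = 0.012) and 2 for the interaction (Il1rn gained, -1.01, adjusted p = 0.032). With a replicate block by description number they were 7, 1, 3 and 1. Between treated grafts that block lost Il1rn (-0.92, adjusted p = 0.094) and Il18 (-1.10, adjusted p = 0.078). In the naive libraries alone the title block called 2782 genes and 2 of the 10. Same-numbered naive and treated libraries correlated between -0.28 and 0.246 in their deviations. The 2 libraries of a treated group deviate from their mean as mirror images, so these values cannot show whether the numbers pair those groups.

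Reversals were confined, among the alternatives run, to values that were not called and to ratios. For Nlrp3, library totals gave -0.08 for treatment of control tumours and 0.07 between treated grafts. For treatment of Sox2Hi tumours, the all-gene scaling, RLE factors, library totals, DESeq2 and the title block gave -0.17, -0.01, -0.28, -0.01 and -0.08 for Il1rn and -0.18, -0.02, -0.26, -0.02 and -0.10 for Nlrp3, and the first and the third gave -0.10 and -0.18 for Il1r2. Between naive grafts the all-gene scaling gave 0.12 for Il1b, 0.15 for Il1r2 and 0.19 for Pycard, and weighted limma-voom gave -0.00 for Il1a, -0.02 for Il1rn and -0.01 for Nlrp3. For the interaction, library totals gave 0.07 for Il1b and 0.04 for Casp1, and weighted limma-voom 0.10 for Il1b. Leaving out 1 library gave -0.32 to 0.37 for Il1rn and -0.08 to 0.32 for Nlrp3 in treatment of Sox2Hi tumours. Between naive grafts it gave -0.08 to 0.25 for Il1rn, -0.40 to 0.04 for Il1r2, -0.12 to 0.34 for Nlrp3, -0.39 to 0.11 for Pycard and -0.14 to 0.24 for Gsdmd. For the interaction it gave -0.47 to 0.10 for Il1b and -0.84 to 0.13 for Il18. Ratio differences that changed sign when 1 library was left out ran from -0.18 to 0.26 (Il1rn to Il1b, treatment of control tumours), -0.16 to 0.23 (Il1a to Il1b, treatment of Sox2Hi tumours), -0.12 to 0.20 (Il1r2 to Il1b, naive grafts), -0.53 to 0.08 (Il1r2 to Il1b, treated grafts) and -0.10 to 0.16 (Casp4 to Casp1, treated grafts).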
